A study of Drosophila melanogaster with 6 samples.

Results

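The CCT chaperonin, also called TRiC, is a cytosolic folding machine built from 8 related subunits. The subunits were found as the rows of the deposited gene tables whose FlyBase identifiers carry the symbols CCT1 to CCT8, and all 8 were present among the 13943 features of each table. All 8 passed the filter on low counts. The libraries came from Drosophila melanogaster eggs that the labels call unfertilized, collected from 0 to 30 min after laying. In both groups a transgene was overexpressed in the female germline with MTD-GAL4, a driver combination active through oogenesis, and the fathers were sterile. The transgene was wild-type MEK (genotype MTD>MEK, 3 libraries) or the RASopathy mutant MEK F53S (genotype MTD>MEK_F53S, 3 libraries), a gain-of-function form of the kinase that activates ERK. Each group is 1 fly line, both constructs sit at the same place in the genome, and each library pools about 20 eggs, and effects of line and transgene cannot be told apart. Eggs with wild-type MEK, which also overexpress the kinase, are called control eggs below, and those with MEK F53S are called F53S eggs. In these bulk samples, fewer cells of a type and less RNA per cell cannot be told apart either.

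CCT forms a pair of stacked rings, each with a copy of every subunit at a fixed position, and closes around unfolded proteins as it hydrolyses ATP. Its best known clients are actin and the tubulins, and it also folds proteins with WD repeats such as the anaphase activators. In yeast and mammals the subunits fall into a side of the ring that binds ATP tightly (CCT1, CCT2, CCT4 and CCT5) and a side that binds it weakly (CCT3, CCT6, CCT7 and CCT8). Since the rings need their subunits in equal numbers, the levels of the subunits relative to each other are described here beside their changes. Each level below is either a deposited TPM, which is per transcript length and allows subunits to be compared, or a TMM-normalised CPM, which is not per length and is used to compare libraries.

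The 8 genes lie apart in the genome (dm6). On the side that binds ATP tightly, CCT1 lies at 3R, 22489105 to 22491439, CCT2 at X, 9089513 to 9092826, CCT4 at 2L, 12690336 to 12692934, and CCT5 at 2R, 12174802 to 12177516. On the other side, CCT3 lies at 3R, 16647605 to 16649978, CCT6 at X, 15746648 to 15748971, CCT7 at 3R, 8801564 to 8806234, and CCT8 at 2R, 8904844 to 8906990. They encode proteins of similar size, from 533 residues (CCT4 and CCT6) to 557 residues (CCT1). CCT2, CCT4, CCT6, CCT7 and CCT8 have 1 annotated transcript each, CCT1 and CCT5 have 2, and CCT3 has 4. No exon base of any subunit is shared with another gene on the same strand, whereas EndoG on the other strand covers 4.39% of CCT5 exon bases and CG9839 covers 0.509% of those of CCT7. Tested genes within 50 kb of a subunit numbered 121 in all, of which 10 (8.26%) rose and 15 (12.4%) fell, against 12.3% and 12.9% of all genes tested. Around CCT2, whose gene ends 155 kb from Dsor1 (the fly gene for MEK), 3 of 12 fell and the other 9 were not called.

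Libraries held between 37224814 and 48756311 estimated counts, and the subunits together had between 47371 and 99594 of them. Dsor1 stood at 1489, 1160 and 1462 CPM in control eggs and at 1601, 1212 and 1196 CPM in F53S eggs (log2 fold change -0.04, edgeR adjusted p = 0.88, with the other sign under some scalings), and the counts do not separate the fly gene from a transgene. The 6 germline markers of the egg summed to between 3517 and 4837 CPM over all libraries, but among them bcd fell from 899 ± 51.3 to 256 ± 27.9 CPM (SD, n = 3) while nanos and grk rose (edgeR adjusted p = 1.65e-05, 0.0405 and 0.00715). The 11 eggshell and follicle cell markers summed to at most 0.265 CPM, with 9 of them at 0. The 9 yolk and fat body markers summed to 8.87 to 10.97 CPM in control eggs and 61.5 to 105 CPM in F53S eggs, with Yp1, Yp2, Lsp1alpha and Fbp1 at 0 in all 6 libraries. Nearly all of that sum was apolpp (410, 276 and 376 counts against 2450, 5055 and 3776), whereas Yp3 and Lsp1beta had at most 17 counts in control libraries and 0 in F53S libraries. Lsp1gamma differed as apolpp did, with 0, 1 and 0 counts in control libraries and 37, 56 and 93 in F53S libraries. Of this list, apolpp and Lsp1gamma were tested, and edgeR called each higher. Lsp2 had 12 counts in F53S replicate 1 and 0 elsewhere. The 5 muscle markers summed to 1.23 to 2.26 and 4.16 to 5.46 CPM, with Mhc and wupA at 0. Nearly all muscle marker counts came from bt, the only 1 of them tested, which edgeR called higher (log2 fold change 1.40). The 10 early zygotic markers summed to 0.147 to 0.335 CPM in control eggs. In F53S replicates 1, 2 and 3 they summed to 8.59, 1.40 and 14.07 CPM. Of them, ftz, kni, twi and scw were at 0 in every library. Counts of sisA were 1, 0 and 0 in control libraries and 277, 46 and 465 in F53S libraries. Those of Kr were 0, 5 and 0 against 34, 22 and 107. Among these 10 markers, sisA and Kr were tested, and edgeR called each higher. Beside the marker calls of all these lists, 12.3% of all genes tested were called higher and 12.9% lower. The marker eve, which was not tested, was highest in F53S replicate 3. The share of counts from mitochondrially encoded genes ranged from 7.84 to 10.08% in control eggs and from 4.14 to 5.24% in F53S eggs. With the mitochondrial genes left out, CCT1, CCT2 and CCT8 were called higher as before, with log2 fold changes of 0.61, 0.71 and 0.79. In that fit 12.3% of all genes tested were called higher. The part of the marker differences in the CCT results was not tested.

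Of the 8 subunits, CCT1, CCT2 and CCT8 were higher in F53S eggs, 5 did not pass the test, and 0 were lower by edgeR at the adjusted threshold, at an unadjusted p under 0.05, by DESeq2 or by limma. Over all 7539 genes tested, 25.2% were called, 12.3% higher and 12.9% lower. The fitted log2 fold change was above 0 for all 8 subunits, with a median of 0.31, whereas over all genes the median was 0.05 and 53.8% were above 0. With library size as the only scaling, which moved the median of all genes up by 0.21, 6 subunits and 23.6% of all genes were called higher. With limma, 2 subunits were called higher at either pseudocount, CCT2 and CCT8, beside 13.9% of all genes on log2(TPM + 1) and 13.8% on log2(TPM + 0.1). With a filter of at least 1 CPM in 3 libraries it was 3 subunits, beside 14.0% of all genes. CCT8 was the only subunit whose rise was called in all 19 alternative fits, the 6 that leave out a library included.

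CCT8, the theta subunit, had the lowest TPM of the 8 in every library. It stood at 84.7, 65.2 and 56.3 CPM in control eggs and at 119, 129 and 109 CPM in F53S eggs. The groups did not overlap, as was the case for 42.3% of all genes tested, 21.2% with the higher values in F53S eggs. Its log2 fold change was 0.79 ± 0.17 (SE, n = 3 per group, edgeR adjusted p = 0.00809), a 1.73-fold rise. It was called in 19 of 19 alternatives, with log2 fold changes between 0.61 and 1.003. Of the 930 genes called higher, 337, or 36.2%, were called higher in every alternative.

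CCT1, the alpha subunit, which the tight ATP-binding side holds, stood at 186, 132 and 129 CPM in control eggs and at 211, 254 and 220 CPM in F53S eggs. The groups did not overlap, and control replicate 1 lay closer to F53S replicate 1 than to the other control libraries. The log2 fold change was 0.61 ± 0.16 (SE, n = 3 per group, edgeR adjusted p = 0.0209). The call was lost with limma on log2(TPM + 1) (log2 fold change 0.55, adjusted p = 0.0666), with effective lengths as an offset, and on leaving out control replicate 2 or 3 or F53S replicate 2 or 3 (adjusted p = 0.0597 to 0.0958).

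CCT2, the beta subunit on the same side, had the widest spread within groups. It stood at 264, 184 and 140 CPM in control eggs and at 337, 365 and 261 CPM in F53S eggs. The groups met: the highest control library was just above the lowest F53S library. On the TPM scale they did not overlap, at 321, 203 and 157 TPM against 404, 490 and 325 TPM. The log2 fold change was 0.71 ± 0.22 (SE, n = 3 per group, edgeR adjusted p = 0.0392). CCT2 was called in all 13 alternatives that kept every library, but these share the same libraries and are not independent. Leaving out control replicate 1 or F53S replicate 3 kept the call, and leaving out each of the other 4 libraries lost it (adjusted p = 0.107 to 0.12). Of the 930 genes called higher, 38.3% were called higher in every fit that leaves out 1 library.

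CCT4 and CCT5, the delta and epsilon subunits and the other members of that side, were the most abundant per length and were not called. CCT4 stood at 414, 335 and 281 CPM in control eggs and at 350, 407 and 356 CPM in F53S eggs, with groups that overlapped (log2 fold change 0.11 ± 0.15 SE, edgeR adjusted p = 0.62). CCT5 stood at 276, 237 and 232 CPM and at 298, 273 and 302 CPM, a log2 fold change of 0.23 ± 0.11 (SE, adjusted p = 0.168). For CCT5 the highest control library exceeded the lowest F53S library by a few CPM.

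On the weak ATP-binding side, CCT6, the zeta subunit, lay between the called and the uncalled subunits. Its levels were 176, 125 and 114 CPM in control eggs and 172, 193 and 179 CPM in F53S eggs, so that control replicate 1 fell inside the range of the other group. Its log2 fold change was 0.39 ± 0.16 (SE, edgeR adjusted p = 0.111), and without control replicate 1 it was 0.57 (adjusted p = 0.00531). CCT3, the gamma subunit, stood at 181, 172 and 148 CPM against 197, 181 and 193 CPM (log2 fold change 0.19 ± 0.12 SE, adjusted p = 0.276). CCT7, the eta subunit, had the smallest difference, with 250, 217 and 222 CPM against 224, 251 and 245 CPM (log2 fold change 0.06 ± 0.11 SE, adjusted p = 0.706). The ranges of both groups of CCT7 nearly coincided.

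**Figure D1:**
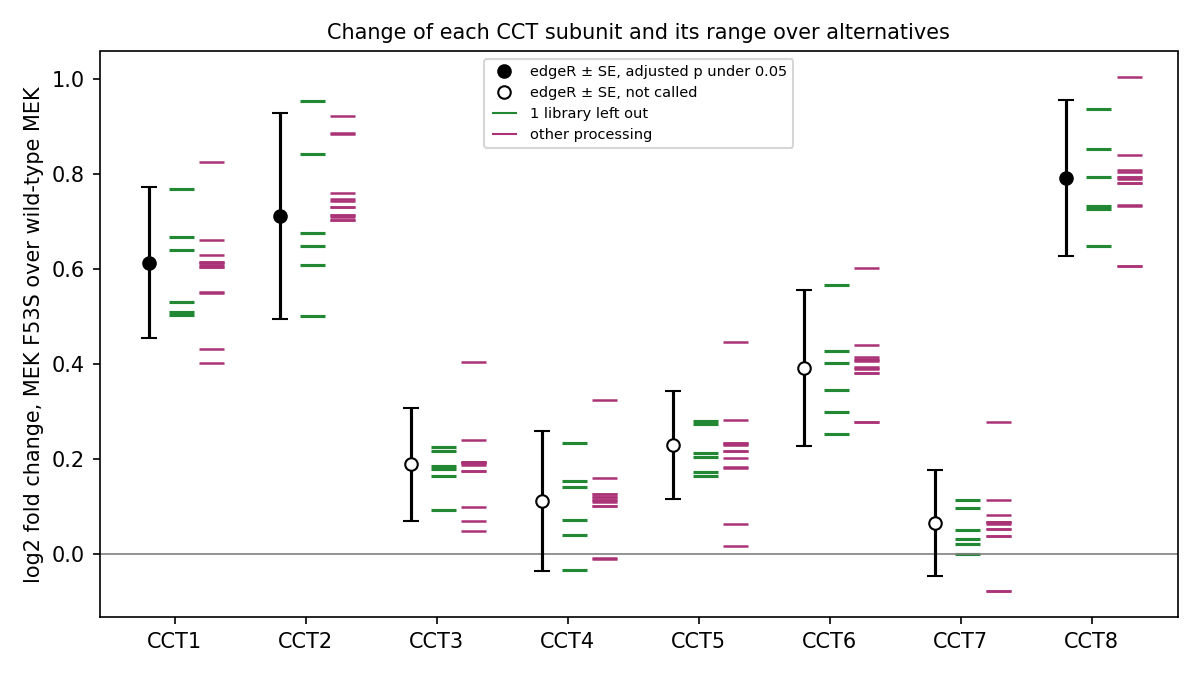
The log2 fold change of MEK F53S over wild-type MEK (vertical axis) is plotted for each CCT subunit, as the edgeR value ± SE (circles, filled where the adjusted p was under 0.05) with the values from fits that leave out 1 library (green) and from other processing (purple). CCT8 stays between 0.61 and 1.003 throughout, while values for CCT4 and CCT7 reach both sides of 0.

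The subunits varied together among the control libraries. Replicate 1 was the highest control library for all 8 subunits, against 40.6% of all genes tested. Its log2 CPM exceeded the mean of replicates 2 and 3 by 0.18 (CCT3) to 0.72 (CCT2), with a median of 0.46 over subunits and 0.00 over all genes. The coefficient of variation among control libraries had a median of 20.3% over subunits and 14.3% over all genes, and among F53S libraries 7.22% and 13.6%. These sets were not matched by level: the median of mean CPM was 212 over subunits and 44.3 over all genes. With MEK F53S, replicate 2 was the highest library for 6 subunits, all but CCT3 and CCT5, against 42.1% of all genes. The number of subunits called higher was 4 without control replicate 1, 1 without control replicate 2 or 3, 2 without F53S replicate 1 or 3 and 1 without F53S replicate 2. Over all genes, 16.9%, 5.4% and 6.03% were called higher without control replicates 1, 2 and 3, and 6.57%, 10.9% and 6.48% without F53S replicates 1, 2 and 3.

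**Figure D2:**
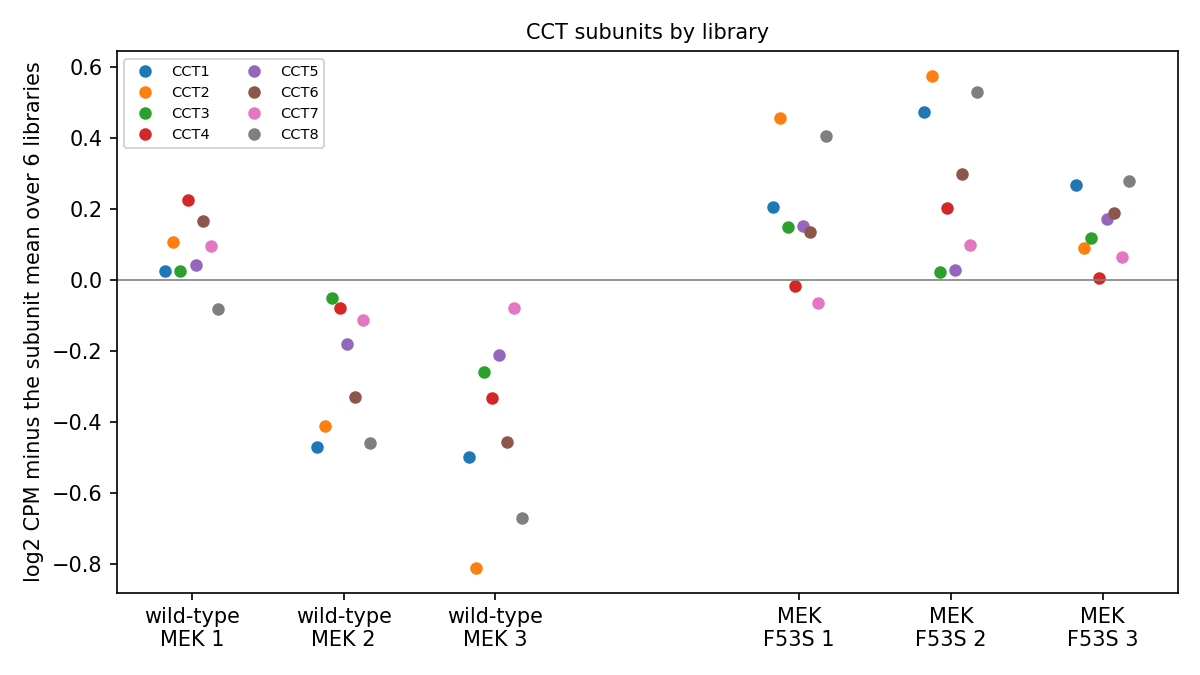
The log2 CPM of each subunit minus its own mean over the 6 libraries (vertical axis) is plotted by library (horizontal axis), with a colour per subunit. Points of control replicate 1 lie above those of control replicates 2 and 3 for all 8 subunits.

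Summed over the subunits, the CCT level was 1832, 1466 and 1323 CPM in control eggs and 1907, 2053 and 1864 CPM in F53S eggs. The groups did not overlap and the mean was 1.26-fold higher (exact permutation p = 0.1, the smallest that 3 against 3 allows). Single genes without overlap by CPM made up 42.3% of all genes tested. As summed TPM the groups overlapped, at 3602, 2887 and 2575 against 3439, 4224 and 3526 (1.23-fold, exact permutation p = 0.3). Control replicate 1 was above F53S replicates 1 and 3 on this scale.

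The order of the subunits per length was fixed at its ends. CCT5 had the highest TPM, CCT4 the second highest and CCT8 the lowest in all 6 libraries. CCT5 stood at 794, 720 and 670 TPM in control eggs and at 785, 839 and 847 TPM in F53S eggs. CCT4 stood at 765, 592 and 494 TPM and at 597, 777 and 618 TPM. With MEK F53S the ranges of CCT5 and CCT4 did not overlap, and in control eggs they did, though CCT5 was the higher in each library. CCT8 stood at 192, 145 and 120 TPM and at 236, 302 and 217 TPM.

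Between those ends the order differed by group. With wild-type MEK the means ran from CCT7 (384 TPM) through CCT3 (321), CCT1 (306) and CCT6 (286) to CCT2 (227), and every neighbouring pair of these overlapped in range. CCT7 followed directly after CCT4, and CCT2 directly before CCT8, in each control library. With MEK F53S the means ran from CCT1 (448 TPM) through CCT2 (406), CCT7 (395) and CCT6 (376) to CCT3 (365), again with overlapping ranges between neighbours. There CCT2 had rank 3, 4 and 7 in replicates 1, 2 and 3, and CCT7 had rank 6, 5 and 4.

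**Figure D3:**
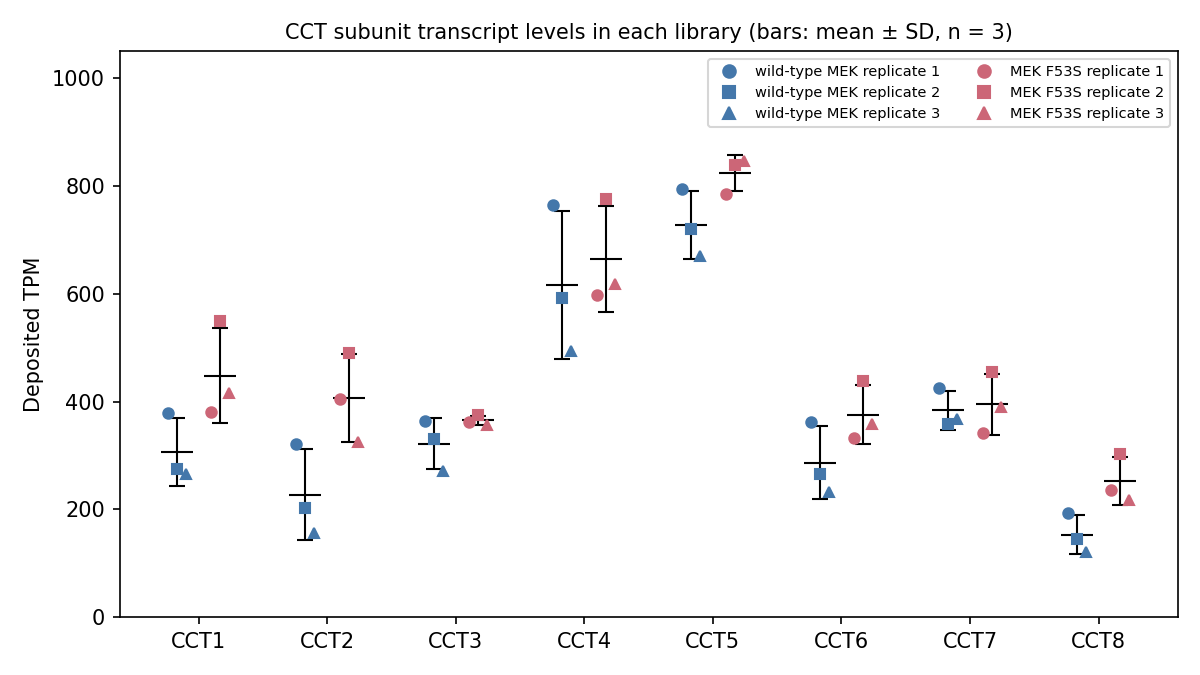
Deposited TPM (vertical axis) of each CCT subunit is plotted for each library, blue for wild-type MEK and red for MEK F53S, with bars for the mean ± SD of 3 libraries. CCT5 and CCT4 are highest and CCT8 is lowest in every library.

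Levels of the subunits lay closer together in F53S eggs. The highest subunit exceeded the lowest by 4.13-, 4.95- and 5.57-fold in the control libraries and by 3.33-, 2.78- and 3.90-fold in the F53S libraries. The standard deviation over subunits of log2 TPM was 0.667, 0.759 and 0.818 against 0.536, 0.498 and 0.595. Neither measure overlapped between groups (exact permutation p = 0.1 for each, the smallest possible). CCT8 and CCT2, which had the lowest mean TPM in control eggs, are among the subunits called higher, so these measures are not a separate result. For comparison, 42.3% of all genes tested had CPM that did not overlap between groups.

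Each subunit's share of the summed TPM would be 12.5% if all 8 were equal. The share of CCT8 was 5.01 ± 0.334% (SD, n = 3) in control eggs and 6.73 ± 0.513% in F53S eggs, and that of CCT2 was 7.34 ± 1.43% and 10.86 ± 1.42%. CCT1 took 10.1 ± 0.534% and 11.9 ± 0.975%. All 3 shares were higher in F53S eggs without overlap. In the other direction, CCT4 took 20.3 ± 1.03% and 17.8 ± 0.558%, and CCT7 took 12.8 ± 1.27% and 10.6 ± 0.58%, also without overlap. Those 5 shares each had an exact permutation p of 0.1, the smallest possible. Groups without overlap were common in these data, for 42.3% of all genes tested by CPM and 41.6% of gene pairs by TPM ratio. The 3 higher shares belong to the 3 subunits called higher, so they are not a separate result. Shares of CCT5 (24.3 ± 2.05% and 22.2 ± 2.13%), CCT3 (10.7 ± 0.672% and 9.85 ± 0.871%) and CCT6 (9.4 ± 0.564% and 10.1 ± 0.373%) overlapped between groups (exact permutation p = 0.3, 0.5 and 0.2). A share of CCT falls when others rise, so a lower share of CCT4 or CCT7 does not by itself show a lower level.

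**Figure D4:**
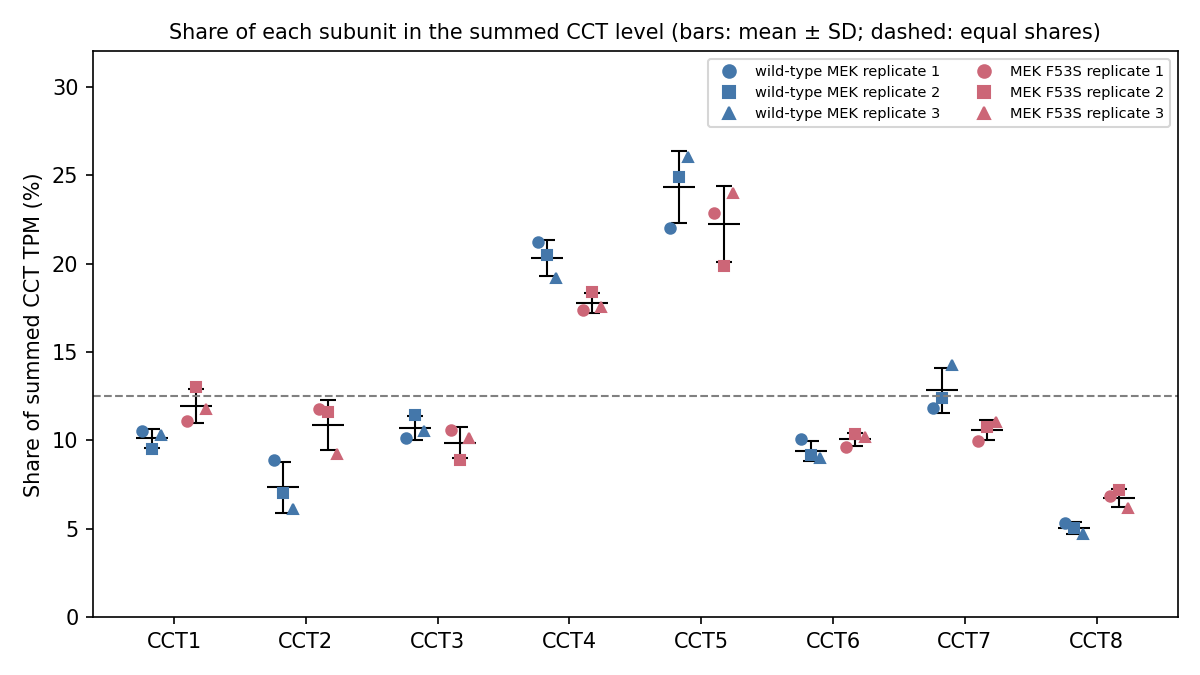
The share of each subunit in the summed CCT TPM (vertical axis, percent) is plotted for each library, with bars for the mean ± SD of 3 libraries and a dashed line at the equal share of 12.5%. Shares of CCT1, CCT2 and CCT8 are higher and those of CCT4 and CCT7 lower in F53S eggs, without overlap.

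Ratios between subunits do not depend on the scaling of the libraries, but TPM ratios carry the effective lengths. Those were 1.10-fold longer in F53S eggs for CCT2 and 1.23-fold longer for CCT7. Of the 28 pairs of subunits, 16 had log2 TPM ratios that did not overlap between groups, or 57.1%, against 41.6% of all pairs of tested genes with TPM above 0 in every library. Pairs of subunits are not independent, since each subunit enters 7 of them. Of the 16 pairs, 14 joined a subunit called higher with 1 that was not called. CCT4 over CCT8 was 4.05-fold in control eggs and 2.64-fold in F53S eggs, with log2 ratios of 2.02 ± 0.02 (SD, n = 3) and 1.40 ± 0.09. CCT4 over CCT6 went from a log2 ratio of 1.11 ± 0.04 to 0.82 ± 0.03. The pair with the largest difference of the 28 was CCT2 over CCT7, at -0.82 ± 0.41 and 0.03 ± 0.26 on the log2 scale. By contrast, CCT3 over CCT5 was -1.19 ± 0.10 and -1.17 ± 0.07, and the groups overlapped (exact permutation p = 0.8).

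The order of the subunits rests on the effective lengths that Salmon assigned. For CCT subunits the effective length implied by the deposited counts and TPM was between 31.9% (CCT5) and 66.3% (CCT2) of the annotated transcript length, against a median of 78.9% over 6154 genes with at least 100 counts in every library. Taken per annotated transcript length instead, CCT4 led with 22.7% of the summed level in control eggs and 19.5% in F53S eggs, and CCT5 followed with 17.2% and 15.9%. CCT2 then took 11.5% and 15.3%, so that the share of CCT2 overlapped between groups. The middle order changed too: in control eggs CCT2 then lay above CCT3 (10.2%), CCT1 (9.69%) and CCT6 (9.06%), whose mean TPM exceeded that of CCT2. CCT8 kept the smallest share, 4.56% and 6.31%, without overlap.

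The effective lengths also differed between groups. Those of the subunits were longer in F53S eggs by 1.10-fold (CCT2) to 1.28-fold (CCT1), with a median of 1.22-fold against 1.14-fold over the 6154 genes. With these lengths as an offset in the fit, CCT2 and CCT8 were called higher (log2 fold change 0.73 and 0.61, edgeR adjusted p = 0.0376 and 0.0293), as were 10.7% of all genes (9.6% with the deposited effective lengths). CCT1 was not (0.43, adjusted p = 0.0728), and CCT4 and CCT7 were at -0.011 and -0.079.

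The length columns themselves were too short for the subunits with several transcripts. CCT3 was listed with a length of 510 to 552 bases, whereas its annotated transcripts are 2027 to 2165 bases long. CCT1 and CCT5 were listed below their shortest annotated transcripts too, at 1569 to 1798 bases and 1311 to 1441 bases. For the 5 subunits with 1 transcript, counts were proportional to TPM times effective length, with a factor of 1. The factor is the ratio of counts to that product, divided in each library by its median over genes with 1 annotated transcript. It is therefore centred on 1 for such genes by construction. For CCT3 the factor was 3.68 to 3.97, for CCT5 1.25 to 1.40 and for CCT1 1.10 to 1.25. Multiplied by it, the listed length of CCT3 became 2028 to 2034 bases. Across the 3905 genes with several annotated transcripts and at least 100 counts in every library, 6.27% had listed lengths within their annotated range, and 99.9% did after multiplication (tolerance 1%). The factor leaves the deposited TPM and counts of CCT subunits as they are.

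**Figure D5:**
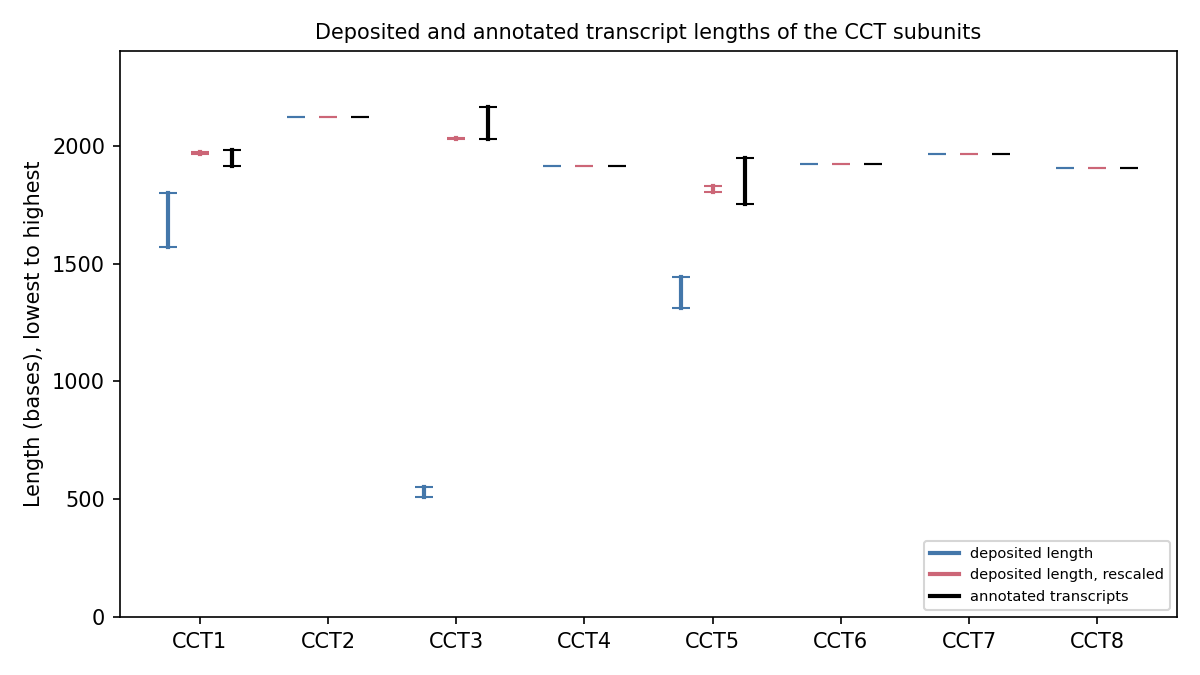
Lengths in bases (vertical axis, lowest to highest) are plotted for each CCT subunit as listed in the 6 tables (blue), after multiplication by the factor that relates counts to TPM times effective length (red), and in the annotation (black). The listed length of CCT3 lies near 500 bases and moves to its annotated range after multiplication.

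Prefoldin, the hexamer that hands unfolded actin and tubulin to CCT, was scarcer per length than the chaperonin. Its 6 subunits summed to 456 to 542 TPM in control eggs and 616 to 659 TPM in F53S eggs, without overlap. Taken singly by CPM, 42.3% of all genes tested did not overlap between groups. Of the 6, mgr rose and 5 did not pass, where 12.3% of all genes tested were called higher. The median log2 fold change of the 6 was 0.30. The level of mgr, which encodes prefoldin 3, went from 9.06 ± 1.45 to 18.8 ± 1.57 CPM (SD, n = 3; log2 fold change 1.06 ± 0.19 SE, edgeR adjusted p = 0.00408). The other log2 fold changes were 0.53 for Pfdn5 (adjusted p = 0.0832), 0.34 for Pfdn2 (0.21), 0.27 for Pfdn1 (0.31), 0.07 for Pfdn6 (0.809) and -0.00027 for Pfdn4 (0.999), with the adjusted p in parentheses. Pfdn4 takes the other sign under several scalings, and Pfdn2 was called without F53S replicate 2 (0.52, adjusted p = 0.0238).

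Among the phosducin-like genes, whose products assist CCT, CG4511 rose from 81.4 ± 18.8 to 140 ± 2.86 CPM (log2 fold change 0.78, edgeR adjusted p = 0.00839) and CG7650 fell from 198 ± 21.1 to 132 ± 13.5 CPM (-0.59, adjusted p = 0.0105). The remaining gene, viaf, had a log2 fold change of -0.33 and was not called (adjusted p = 0.206), but was without control replicate 1 (-0.51, adjusted p = 0.0326). CG7650 was not called without F53S replicate 1 or 3 (adjusted p = 0.0511 and 0.0514), nor by limma on log2(TPM + 1) (-0.31, adjusted p = 0.105). Of 6 tubulin folding cofactors, which act after CCT, Tbca rose from 15.4 ± 7.36 to 32.6 ± 1.52 CPM (1.08, adjusted p = 0.0329), and 5 did not pass, among them Arl2, Tbce and Tbcb (1.38, -0.22 and -0.18), although DESeq2 also called Arl2 (adjusted p = 0.0343). The call of Tbca was lost without control replicate 2 and without each F53S library (adjusted p = 0.074 to 0.0923). Beside the calls in these lists, 12.3% of all genes tested were called higher and 12.9% lower.

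Of the tubulin clients, 3 of 7 tested genes rose, where 12.3% of all genes tested did, and the other 4 did not pass. The maternal alpha tubulin gene alphaTub67C stood at 251, 141 and 127 CPM in control eggs and at 346, 340 and 316 CPM in F53S eggs (log2 fold change 0.95 ± 0.23 SE, edgeR adjusted p = 0.0143). Here too control replicate 1 was the highest of its group. The more abundant alphaTub84B and betaTub56D rose by 0.50 and 0.41 on the log2 scale (adjusted p = 0.00866 and 0.0346), and gammaTub23C had a log2 fold change of -0.29 (adjusted p = 0.141). With implied effective lengths as an offset, alphaTub84B (0.26, adjusted p = 0.0854) and betaTub56D (0.19, adjusted p = 0.311) were not called. Without control replicate 2, alphaTub67C (0.80, adjusted p = 0.0571), alphaTub84B (0.43, adjusted p = 0.051) and betaTub56D (0.44, adjusted p = 0.0707) were not called. The call of betaTub56D was also lost without each other library apart from F53S replicate 2 (adjusted p = 0.0607 to 0.144). Reads of alphaTub84B and alphaTub84D, which are near-identical copies, may be split between them, so their values are uncertain.

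Of 3 tested actin genes, Act5C had a log2 fold change of 0.36 and an adjusted p of 0.0499, a call lost on leaving out each of the 6 libraries in turn (adjusted p = 0.064 to 0.155) and with DESeq2 (adjusted p = 0.0549). Act42A and Act87E were not called (0.23 and -0.60), and actin genes share sequence, so their counts are uncertain. Among 7 tested genes of WD repeat proteins, fzy, the Cdc20 activator of the anaphase-promoting complex, fell from 640 ± 46.8 to 465 ± 36.5 CPM (log2 fold change -0.46, edgeR adjusted p = 0.0129). The other 6 did not pass, among them raptor, Lst8 and fzr (-0.36, -0.23 and 0.13). Beside the actin and WD repeat calls, 12.3% of all genes tested were called higher and 12.9% lower. Without F53S replicate 3 fzy was not called (-0.44, adjusted p = 0.0683), and without F53S replicate 2 raptor was (-0.51, adjusted p = 0.00775).

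Of 10 tested cytosolic chaperone genes, Hsc70-4 and Stip1 rose, Droj2 fell and 7 did not pass. Over all genes tested, 12.3% were called higher and 12.9% lower. Hsc70-4, the constitutive Hsp70, rose from 2118 ± 162 to 3056 ± 341 CPM (log2 fold change 0.53, edgeR adjusted p = 0.00738), and Stip1, the adaptor between Hsp70 and Hsp90, rose by 0.64 on the log2 scale (adjusted p = 0.0368). Droj2, a DnaJ co-chaperone, fell by 0.35 (adjusted p = 0.032), and the heat shock factor gene Hsf was not called (0.63, adjusted p = 0.0546). Hsf was called in 8 of 19 alternatives, among them DESeq2 (adjusted p = 0.0175) and the fit without control replicate 1 (0.92, adjusted p = 0.000828). The call of Droj2 held in 10 of 19 alternatives. It was lost without control replicate 3 and without F53S replicate 1 or 3 (adjusted p = 0.0845 to 0.128), with limma on log2(TPM + 1) (-0.19, adjusted p = 0.314), with library size only (-0.13, adjusted p = 0.337) and with either effective length as an offset (0.40 with the deposited, -0.32 with the implied). Stip1 kept its call without control replicate 1 and lost it without each of the others (adjusted p = 0.0765 to 0.123). Of the mitochondrial chaperonin genes, a separate family from CCT, Hsp60A and CG11267 were tested and edgeR called 0 (0.42 and 0.16), with 1, Hsp60A, at an unadjusted p under 0.05. DESeq2 called Hsp60A (adjusted p = 0.045), limma called 0, and edgeR called it without control replicate 1 (adjusted p = 0.00977). Hsp60B, Hsp60C and Hsp60D had 0 counts in every library.

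The genes with the profile nearest to the mean of the 8 subunits were Pdhb, grp, CG12822, Ack-like and cpa. Likeness was measured as the Euclidean distance between centred log2 CPM over the 6 libraries, among the 4902 genes averaging 20 CPM or more. Distances were 0.111 (Pdhb, a pyruvate dehydrogenase subunit), 0.134 (grp, the Chk1 kinase), 0.14 (CG12822), 0.147 (Ack-like, a kinase) and 0.15 (cpa, the actin capping protein alpha subunit), against a median of 0.816 over those genes. The subunits themselves lay at 0.134 (CCT6) to 0.592 (CCT2) from their own mean. Pdhb stood at 73.5, 60.6 and 56.4 CPM in control eggs and at 80.5, 85.8 and 84.1 CPM in F53S eggs, and grp at 364, 289 and 282 CPM against 397, 403 and 399 CPM. In both genes control replicate 1 was the highest of its group, as it was for the subunits. These genes were picked for this pattern, so no test is given for them.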

How the data were processed

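RNA of eggs that the labels call unfertilized was measured in 6 libraries, which the labels call directional. The tool Salmon 0.8.2 and the build dm6 come from the submitters' processing notes, while the transcript annotation, strand setting and bias options, not given in the sources used here, could not be checked. Each deposited table holds, per the file headers, an estimated count, a TPM value, a length and an effective length for every gene. The estimated count, as deposited, is not scaled for depth. The TPM, as deposited, is scaled by effective length to the same sum in each library. The 2 length columns, deposited in bases, were too short for genes with several transcripts and entered only named alternatives.

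Subunits and lists were found by gene identifier through a name table. Positions came from Ensembl release 115 (BDGP6, dm6 coordinates). Estimated counts were rounded, filtered with filterByExpr of edgeR 4.0.16 in R 4.3.3 (minimum count 10, minimum total 15), scaled with TMM factors and compared with the quasi-likelihood test, with no covariate. Benjamini-Hochberg adjustment ran over all 7539 genes tested, and an adjusted p under 0.05 was called. Standard errors (SE) were derived from the F statistic. Shares, ratios and sums used the deposited TPM and a two-sided exact permutation test, whose smallest possible p is 0.1 with 3 libraries against 3. P-values measure the spread between these libraries. Libraries held 37224814 to 48756311 estimated counts.

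The genes named were the 8 subunits, the 6 prefoldin subunits, Dsor1, up to 4 tested genes of each other list with the smallest p, and the 5 genes with the nearest profile. The members and lists were chosen with earlier results of these data known. Alternatives changed the scaling, count filter, test (DESeq2 1.42.0, limma 3.58.1 on log2 TPM), length handling and libraries. An alternative fit with effective lengths implied by the counts and TPM and the levels per annotated transcript length were added after seeing the data.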

Additional observations from a re-analysis of the deposited data

How the results depend on the processing

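The call of CCT8 was kept in all 19 alternatives, that of CCT2 in 15 and that of CCT1 in 11. With library size only, which moved the median of all genes by 0.21 (log2), 6 subunits were called higher, and 1778 and 505 genes of all were called higher and lower in place of 930 and 970. Genes called lower numbered 572 with limma on log2(TPM + 1) and 562 on log2(TPM + 0.1). Leaving out 1 library gave 424 to 1304 genes called higher, 506 to 1310 lower, 1 to 4 subunits higher and 0 lower. The summed CCT level turned to -0.012 (log2) per deposited effective length. That measure divides TMM-scaled counts by effective length and, unlike TPM, is not rescaled to a fixed sum. It uses the lengths that were too short for CCT1, CCT3 and CCT5. Implied effective lengths were longer in F53S eggs by a median of 1.22-fold over subunits and 1.14-fold over the 6154 genes. The part of each was not tested. As deposited TPM the summed CCT level was 0.31, and 0.20 to 0.45 without a library. Per deposited length it was 0.29, per annotated length 0.34 and with the mitochondrial genes left out 0.28.

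Values near 0, and that of Droj2, changed sign. With the deposited effective length as an offset, CCT4, CCT7 and Droj2 were at -0.0104, -0.0789 and 0.40 on the log2 scale, and with the implied one at -0.0109, -0.0794 and -0.32. With the deposited lengths used to remove a length trend, Pfdn6 was at -0.0030. Pfdn4 was at 0.044 with upper-quartile factors, 0.22 with library size only, 0.00093 with no count filter, 0.0021 with at least 1 CPM in 3 libraries, 0.099 and 0.10 with limma at pseudocounts of 1 and 0.1 and 0.014 with a replicate block. Dsor1 was at 0.017 with upper-quartile factors, 0.18 with library size only and 0.0069 with limma at either pseudocount. Tbcb was at 0.032 with library size only. The cause was not tested. Leaving out 1 library gave -0.034 to 0.23 for CCT4, -0.00076 to 0.11 for CCT7, -0.17 to 0.13 for Pfdn4, -0.090 to 0.16 for Pfdn6 and -0.19 to 0.038 for Dsor1.

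Replicate numbers are shared between the groups as labels, and same-numbered libraries had correlations of deviations of -0.05, -0.12 and 0.11, which do not pair them. With the replicate block 3 subunits were called higher, with log2 fold changes of 0.63 (CCT1), 0.75 (CCT2) and 0.81 (CCT8), and 744 of the 7539 genes were called higher. Each subunit had at least 2016 counts in every library.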
